A study of Mus musculus with 2 samples.

Results

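Solute carriers are membrane proteins that move small molecules (amino acids, metal ions, nucleosides, sugars, acids and cofactors) across the outer membrane and the membranes of organelles. The members described here were the listed genes with a symbol of the form Slc, family number, a and member number. A few carriers of iron, cystine, glucose and lactate named in the rule were left out. This gave 160 of the 11349 listed genes, from 40 families, and no symbol occurred more than once. Each was put in 1 of 15 groups by family and substrate, the largest of which were the mitochondrial SLC25 carriers (36), amino acid carriers (27), carriers of sodium, protons, bicarbonate and chloride (18) and zinc carriers (17).

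Solute carriers work in a few basic ways. Some are coupled to sodium or protons and can concentrate their substrate, some exchange one molecule for another, and some let a substrate run down its gradient. The heavy chain Slc3a2 (the cell-surface antigen 4F2) carries no substrate itself and brings light chains of the Slc7 family to the cell surface. The SLC25 family lies mostly in the inner mitochondrial membrane and connects the metabolism of the matrix with that of the cytosol. In macrophages, carriers are known for supplying arginine to nitric oxide synthase and arginase, for emptying the lysosome of digested material and for handling metals.

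RNA sequencing was done on primary mouse macrophages from the abdominal cavity. The 2 groups were wild-type (WT) cells and cells labelled TREM-2-/-, each with 1 library. The WT library carries the mouse strain name C57 in its description, and both groups had received TGF-β1, a growth factor of wound repair, for 24 h. The genotype label of the second group reads knockdown, and the title was followed. The labels used here give no age, sex, number of animals or pooling, and name the tissue, not how the cells were selected. Because a group is 1 library, differences lack a replicate check and no test was possible, so each value describes these libraries. Trem2, a lipid-sensing receptor of macrophages, stood at 135 FPKM in WT against 13.7 FPKM in the knockout library. FPKM is the fragment count scaled for gene length and library size. Spacing of the low values put the WT depth at 13.5 M fragments and that of the knockout at 12.4 M, with a median of 419 and 241 fragments per solute carrier.

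Of the macrophage markers 8 of 9 were listed, among them Cd68 at 1169 FPKM in WT against 1512 FPKM in the knockout library and Adgre1 at 133 and 148 FPKM. By the 2-fold measure used below 3 of these 8 were lower in the knockout and 0 higher. The lower ones were the Fc receptor Fcgr1 at 55.9 and 14.4 FPKM, the integrin Itgam at 92.7 and 41.2 FPKM and Gata6. Gata6, a factor of the peritoneal macrophage, stood at 14.0005 and 2.67 FPKM. The summed level of 6 of 8 mesothelial or epithelial markers was 16.0 FPKM in WT against 4.39 in the knockout, that of 3 of 5 mast cell markers 10.9 and 2.67, that of 2 of 5 endothelial markers 5.92 and 1.41, and that of 4 of 5 neutrophil markers 52.9 and 25.03. The 7 fibroblast markers summed to 237 FPKM in WT against 404 in the knockout. They went opposite ways, with the collagen gene Col1a1 at 48.1 and 171 FPKM and the growth factor receptor Pdgfra at 29.3 and 5.9999 FPKM. Of B cell markers 3 of 5 summed to 9.59 and 10.6 FPKM, of T or NK cell markers 1 of 7 stood at 0.846 and 1.76 FPKM, and 0 of 4 erythroid markers were listed. No listed marker was at 0 FPKM in either library. The part these cells take in the carrier values below was not tested, and in bulk samples fewer cells of a type and less RNA per cell cannot be told apart.

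Of the 160 solute carriers 139 averaged at least 1 FPKM across the libraries and are described by the log2 fold change log2((knockout FPKM + 1)/(WT FPKM + 1)), which understates differences of low genes. A gene counts as higher or lower below only at 2-fold or more on that scale. In the knockout library 32 solute carriers (23.0%) were lower and 7 (5.04%) were higher, beside 13.7% lower and 3.48% higher among the 9962 genes at this level. Their median log2 fold change was -0.44, and that of all these genes was -0.31. With the all-gene median taken off 17 solute carriers (12.2%) were lower, beside 6.57% of all genes, and 12 (8.63%) were higher, beside 7.66%. The excess over the background was thus on the lower side on both scales, and the higher side was close to the background on the second. Counting intervals of the knockout-to-WT ratio (95%, exact Clopper-Pearson) could be had for 123 of the 139. These intervals rest on fragment numbers estimated from FPKM and exon length, cover counting error only and take the deposited scaling as exact. They lay wholly below 1 for 78, wholly above 1 for 19 and held 1 for 26. Intervals were not counted over all genes. By log2 fold change alone 6791 of the 9962 genes lay below 0 and 3171 above it. Of the 139 solute carriers 102 lay below 0 and 37 above it.

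**Figure D1:**
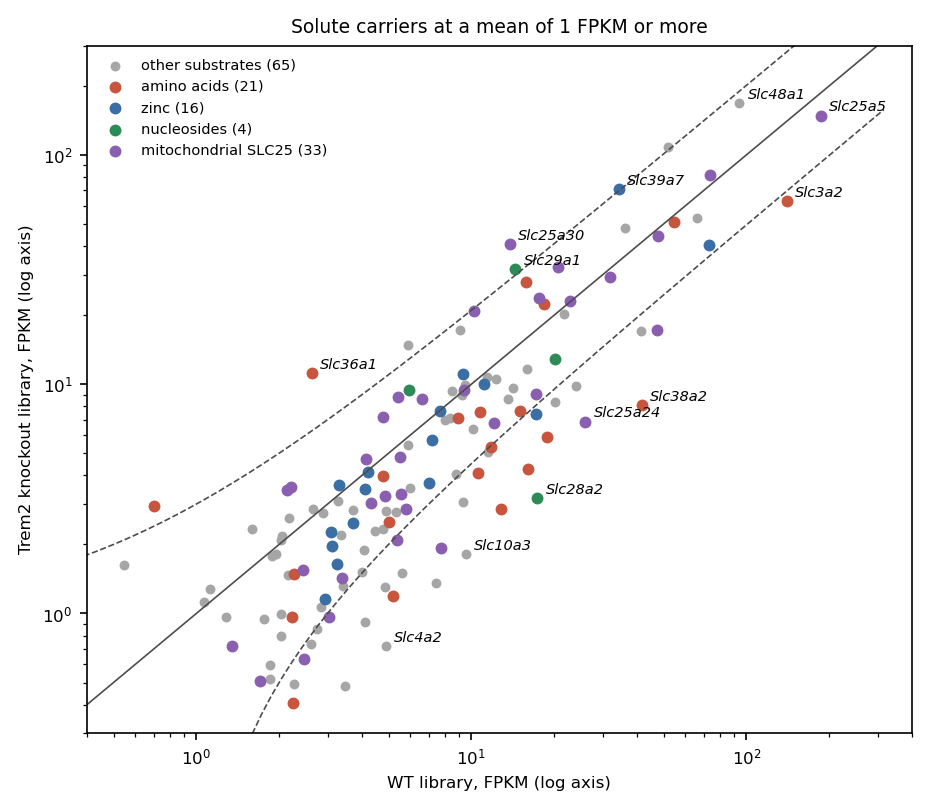
Level of each of the 139 solute carriers in the WT library (horizontal) and the Trem2 knockout library (vertical), in FPKM on log axes, coloured by substrate. The solid line marks equal levels and the dashed lines 2-fold on the log2(FPKM + 1) scale. More carriers lie beyond the lower dashed line (32) than beyond the upper one (7).

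The carriers spanned a wide range of levels. Only 9 had a mean of 50 FPKM or more, 43 had 10 or more, and 96 lay between 1 and 10. The highest mean was that of Slc25a5, an ADP/ATP carrier of mitochondria, at 186 FPKM in WT against 148 FPKM in the knockout library. It was followed by Slc48a1, which carries heme out of the lysosome, by Slc3a2 and by the copper carrier Slc31a2. The 21 carriers below that level had a mean between 0.310 (Slc38a4) and 0.993 FPKM (Slc12a2), 12 of them with the higher value in the knockout and 9 in WT. They were Slc7a3, Slc7a4, Slc36a2, Slc6a12, Slc38a4 and Slc1a6 among amino acid carriers, Slc25a2, Slc25a27 and Slc25a35 in mitochondria, the zinc importer Slc39a4, the nucleoside carrier Slc29a2, the ion carriers Slc12a2, Slc4a4, Slc9a5, Slc9a7 and Slc24a3, and Slc2a3, Slc45a3, Slc16a4, Slc10a6 and Slc22a18. Slc1a6, a glutamate carrier, was listed at 0 FPKM in WT and stood at 0.875 FPKM in the knockout.

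Amino acid carriers stood lower in the knockout library more often than any other of the 4 largest groups. Of 21 measured members 9 (42.9%) were lower and 2 (9.52%) were higher, or 5 lower and 3 higher with the all-gene median taken off, with a median log2 fold change of -0.79. Their summed level was 401 FPKM in WT against 242 FPKM in the knockout, and without Slc3a2 it was 260 and 179 FPKM.

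Slc38a2, a sodium-coupled carrier of alanine, glutamine and other small neutral amino acids (chr15:96687394-96699698, mm10, minus strand), was at 41.7 FPKM in WT against 8.14 FPKM in the knockout, 5.12-fold lower. No interval was computed for it, since its gene model had no matched length. Its log2 fold change of -2.22 was the furthest below 0 among the 139 carriers, and it stayed between -2.38 and -1.83 over the 8 alternative pseudocounts, filters and scalings that applied to it. Its close relative Slc38a1, which also imports glutamine, stood at 15.0 and 7.63 FPKM, just short of 2-fold on the log2 scale. Slc1a5, a neutral amino acid exchanger that carries glutamine, was at 18.8 and 5.90 FPKM, 3.19-fold lower (counting interval 2.81 to 3.64). Slc1a4, which exchanges alanine, serine and cysteine, was at 2.25 and 0.405 FPKM, from about 119 and 20 fragments, so its interval was wide (3.39 to 9.29-fold lower). The glycine carrier Slc6a9 stood at 2.22 and 0.961 FPKM and the taurine carrier Slc6a6 at 54.3 and 50.9 FPKM. Slc6a6 was thus the second-highest amino acid carrier in the table at nearly the same level in both libraries.

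As deposited, the heavy chain and 2 of its 4 measured light chains were lower. With the all-gene median taken off Slc7a8 alone of these stayed past 2-fold, at -1.54, while Slc3a2 and Slc7a5 stood at -0.84 and -0.88. Slc3a2 was at 141 FPKM in WT against 62.8 FPKM in the knockout, 2.24-fold lower (counting interval 2.14 to 2.34). The light chain Slc7a5, an exchanger of leucine and other large neutral amino acids, was at 10.6 and 4.09 FPKM and Slc7a8, which carries a similar range, at 12.8 and 2.85 FPKM, 4.50-fold lower (counting interval 3.82 to 5.31). The light chains that exchange cationic for neutral amino acids differed less, with Slc7a7 at 8.92 and 7.11 FPKM and Slc7a6 at 4.77 and 3.99 FPKM. Summed over these 4 light chains the level was 37.0 FPKM in WT against 18.0 FPKM in the knockout. Slc3a2 stood 3.79 times above that sum in WT and 3.48 times in the knockout, and 3.61 and 3.26 times above it with Slc7a11, the cystine light chain that is no member, added. The facilitative aromatic amino acid carrier Slc16a10 was at 11.8 and 5.33 FPKM, barely past 2-fold at -1.01 on the log2 scale. Slc43a2, which lets large neutral amino acids pass without exchange, went the other way, at 15.8 FPKM in WT against 28.0 FPKM in the knockout (1.77-fold, counting interval 1.68 to 1.87).

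The arginine carriers went in opposite directions. Slc7a1, the widespread cationic amino acid carrier, was at 5.21 FPKM in WT against 1.19 FPKM in the knockout, 4.38-fold lower (counting interval 3.71 to 5.202). Slc7a2, the cationic carrier that macrophages induce on activation, was at 0.705 and 2.94 FPKM, 4.17-fold higher (counting interval 3.27 to 5.32). Slc7a1 was the higher of both in WT and Slc7a2 in the knockout library, while their sum was 5.91 and 4.13 FPKM. The relative Slc7a3 had a mean under 1 FPKM, at 1.17 and 0.328 FPKM.

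Carriers of the lysosome, which hand digested amino acids back to the cytosol, were mixed as well. Slc36a1, a proton-coupled exporter of small neutral amino acids (chr11:55204350-55236330, mm10, plus strand), was at 2.62 FPKM in WT against 11.2 FPKM in the knockout, 4.27-fold higher (counting interval 3.65 to 5.02). Its log2 fold change of 1.75 was the highest among the 139 carriers. Slc38a7, a lysosomal exporter of glutamine and asparagine, was at 16.0 and 4.25 FPKM, 3.78-fold lower (counting interval 3.26 to 4.41). Slc38a9, which senses lysosomal arginine for the growth kinase mTORC1, stood at 2.27 and 1.48 FPKM, and Slc36a4, a relative of Slc36a1, at 10.8 and 7.58 FPKM. Slc38a10 was at 18.4 and 22.3 FPKM and Slc38a6 at 5.04 and 2.497 FPKM. The lysosomal carriers of histidine and peptides, Slc15a3 and Slc15a4, stood at 66.2 and 53.1 FPKM and at 9.13 and 17.2 FPKM. Slc15a4, which toll-like receptors of the endosome need for signalling, was within 2-fold as deposited (0.85 on the log2 scale) and past it with the all-gene median taken off, at 1.15.

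**Figure D2:**
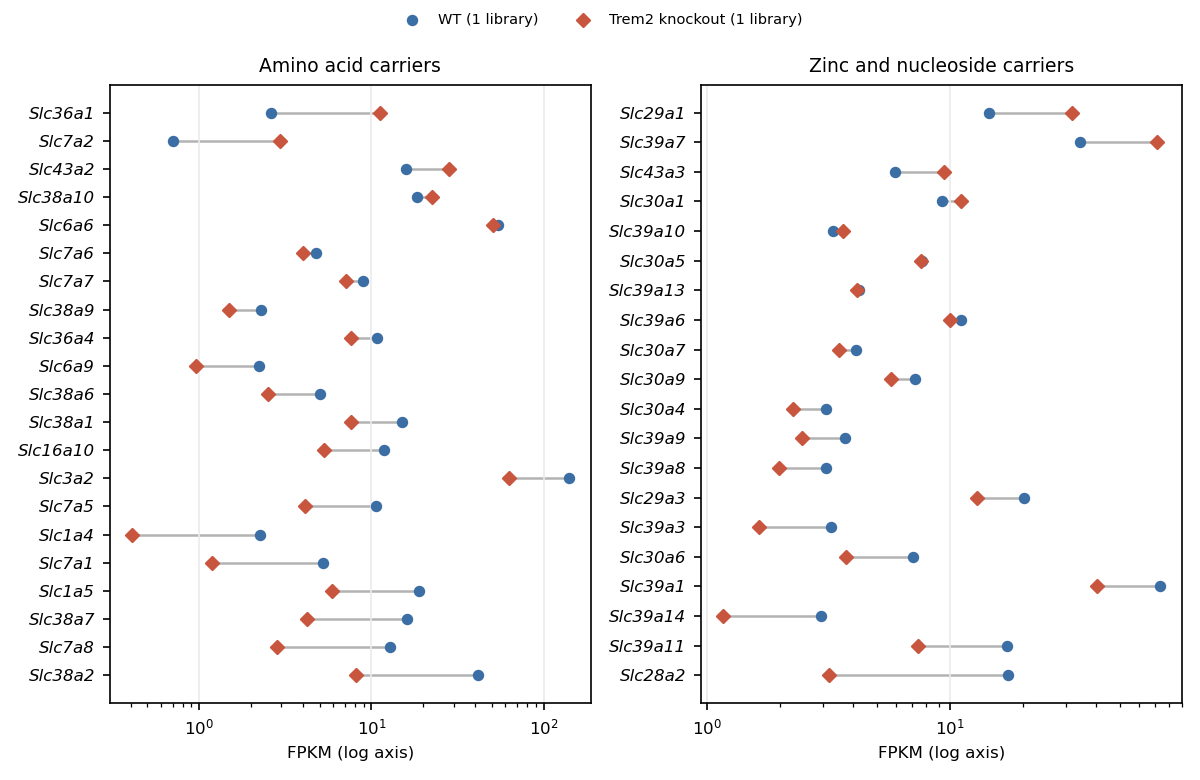
Levels in FPKM (log axis) of the 21 amino acid carriers (left) and the 16 zinc and 4 nucleoside carriers (right), ordered by log2 fold change. Circles stand for the WT library, diamonds for the Trem2 knockout library, and a line joins both values of a gene. Most amino acid carriers have the circle on the right, from Slc38a2 at the bottom, while Slc36a1 and Slc7a2 at the top have it on the left.

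Promoter windows of 4 carriers are printed. They set letters known as response elements for amino acid shortage, lysosomal genes and zinc beside carriers past 2-fold and within it. The windows come from RefSeq (GRCm38.p6), run from 250 bases before to 50 after the annotated start, and were in the table for 104 of the 139 carriers. The amino acid response motif TGATGNAA, searched like all motifs here on both strands, was found in 2 of 16 amino acid carriers with a window, Slc1a4 and Slc7a7, in 4 of 104 carriers (3.85%) and in 4.51% of all 27025 genes with a window. Of the 7 lower amino acid carriers with a window Slc1a4 alone held it. The motif TCACGTG of lysosomal genes was found in 12 of 104 carriers (11.5%), beside 4.29% of the same 27025 genes. Unlike the carriers, these genes were not selected by level, so the shares come from unlike sets. Among amino acid carriers Slc36a1 (higher) and Slc38a7 (lower) both held it. The part of these letters in the differences was not tested. Capitals mark the match. In Slc1a4 (chr11:20332664-20332963, minus strand) it begins 4 bases before the start and runs across it. In Slc36a1 (chr11:55204090-55204389, plus strand) it lies in 2 places, at 1 of which the letters match on both strands with an overlap. In Slc38a7 (chr8:95853442-95853741, minus strand) it begins 35 bases before the start.
Slc1a4: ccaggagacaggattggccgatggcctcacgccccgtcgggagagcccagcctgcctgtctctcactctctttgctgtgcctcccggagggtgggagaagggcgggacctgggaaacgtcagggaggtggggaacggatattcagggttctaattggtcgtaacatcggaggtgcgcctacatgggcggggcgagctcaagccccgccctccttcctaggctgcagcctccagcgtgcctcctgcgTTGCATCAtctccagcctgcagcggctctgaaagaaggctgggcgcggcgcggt
Slc36a1: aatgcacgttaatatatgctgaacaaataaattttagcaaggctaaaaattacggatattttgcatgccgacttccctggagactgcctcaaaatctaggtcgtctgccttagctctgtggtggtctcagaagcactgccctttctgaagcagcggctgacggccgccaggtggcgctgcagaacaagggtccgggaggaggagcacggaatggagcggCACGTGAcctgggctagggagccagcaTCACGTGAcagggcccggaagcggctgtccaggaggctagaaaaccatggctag
Slc38a7: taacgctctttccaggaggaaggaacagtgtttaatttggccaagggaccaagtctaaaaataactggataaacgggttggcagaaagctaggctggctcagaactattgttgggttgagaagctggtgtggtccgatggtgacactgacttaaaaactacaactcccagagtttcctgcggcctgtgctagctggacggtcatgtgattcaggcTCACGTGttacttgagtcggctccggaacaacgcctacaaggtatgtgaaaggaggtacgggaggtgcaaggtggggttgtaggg

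Zinc carriers were close to the background as a group, while some single members differed. The SLC39 proteins bring zinc into the cytosol and the SLC30 proteins take it out, to the outside or into organelles. Of 16 measured members 1 was higher, Slc39a7, and 1 lower, Slc39a11 (6.25% each), and with the all-gene median taken off 1 was higher and 0 lower. The group's median log2 fold change was -0.30, next to the -0.31 of all genes. The summed level of the 10 SLC39 genes was 156 FPKM in WT against 144 FPKM in the knockout, and that of the 6 SLC30 genes 38.4 and 33.9 FPKM.

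Among importers, Slc39a7, which releases zinc from the endoplasmic reticulum, was at 34.3 FPKM in WT against 70.8 FPKM in the knockout library, 2.06-fold higher. Slc39a1, the most abundant zinc importer in WT and one of the plasma membrane, stood at 73.3 and 40.4 FPKM (1.81-fold lower, counting interval 1.69 to 1.94). The order of these importers was therefore reversed between the libraries. Slc39a11, a carrier of inner membranes, was at 17.2 and 7.39 FPKM, 2.33-fold lower (counting interval 2.04 to 2.67). Slc39a14 and Slc39a8, which also carry manganese and iron, stood at 2.93 and 1.16 FPKM and at 3.10 and 1.98 FPKM. Without the pseudocount Slc39a14 was 2.53-fold lower (counting interval 2.09 to 3.06). On the log2(FPKM + 1) scale Slc39a14 was within 2-fold, at -0.86. The other importers, Slc39a3, Slc39a6, Slc39a9, Slc39a10 and Slc39a13, had log2 fold changes between -0.68 and 0.10.

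Among exporters none was past 2-fold. Slc30a1, the exporter of the plasma membrane and a known target of the zinc sensor Mtf1, stood at 9.30 and 11.1 FPKM (1.19-fold, counting interval 1.07 to 1.33). The exporters of the early secretory pathway were at 7.67 and 7.62 FPKM (Slc30a5), 7.03 and 3.72 FPKM (Slc30a6, the partner of Slc30a5) and 4.11 and 3.51 FPKM (Slc30a7). Slc30a9 stood at 7.17 and 5.71 FPKM and Slc30a4 at 3.09 and 2.26 FPKM. Of the other genes of zinc handling, the zinc-binding metallothioneins Mt1 and Mt2 stood at 82.8 and 79.5 FPKM and at 91.4 and 66.2 FPKM, and Mtf1 at 1.65 and 1.78 FPKM. Of the 6 genes of that list 4 had a mean of 1 FPKM or more, and 0 of them were past 2-fold on either scale.

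The metal response motif, searched as TGCACNC and TGCGCNC, was found in 7 of 14 zinc carriers with a window (50%). It was found in 41.3% of the 104 carriers and in 28.2% of all 27025 genes with a window, which were not selected by level. It is shown for Slc30a1, an exporter within 2-fold (chr1:191906531-191906830, GRCm38.p6, plus strand). Capitals mark its 2 matches, both on the other strand, which start 43 bases before and 30 bases after the start.
Slc30a1: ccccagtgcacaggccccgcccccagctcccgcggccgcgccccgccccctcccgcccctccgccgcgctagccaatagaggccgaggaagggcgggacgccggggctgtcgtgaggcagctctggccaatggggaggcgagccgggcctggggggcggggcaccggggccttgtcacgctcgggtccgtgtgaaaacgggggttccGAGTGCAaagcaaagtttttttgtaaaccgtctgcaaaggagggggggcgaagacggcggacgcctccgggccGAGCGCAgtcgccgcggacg

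Of 4 measured nucleoside carriers 1 was lower and 1 higher (25% each), also with the all-gene median taken off. Slc28a2, the sodium-coupled carrier that concentrates purine nucleosides (chr2:122426477-122461137, mm10, plus strand), was at 17.4 FPKM in WT against 3.18 FPKM in the knockout, 5.47-fold lower (counting interval 4.64 to 6.49). Slc29a1, the equilibrative carrier of the cell surface (chr17:45585200-45599606, mm10, minus strand), was at 14.4 and 31.9 FPKM, 2.20-fold higher (counting interval 2.02 to 2.41). Their sum was 31.8 FPKM in WT against 35.03 FPKM in the knockout, so both shared the sum about evenly in WT and Slc29a1 made up most of it in the knockout. The lysosomal carrier Slc29a3 stood at 20.2 and 12.9 FPKM, and Slc43a3, a purine nucleobase carrier, at 5.93 and 9.44 FPKM. Slc29a2 had a mean under 1 FPKM (0.586 and 0.0973 FPKM).

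Slc29a1 and Slc39a7 lie on the chromosome of Trem2, chromosome 17, at distances of 2.76 and 14.3 Mb from it. They were the only ones past 2-fold of the 6 measured carriers there, among which Slc25a23, 8.70 Mb away, had a log2 fold change of 0.51 and Slc37a1, Slc30a6 and Slc8a1 had -0.61, -0.77 and -0.79. Of all 530 measured genes on chromosome 17, 6.42% were higher, beside 3.48% of all 9962 measured genes. This was the highest share among the chromosomes with measured carriers, followed by 5.68% on chromosome 13. The part of position was not tested.

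The mitochondrial SLC25 carriers were close to the background as a group, with individual members far apart. Of 33 measured members 6 (18.2%) were lower and 1 (3.03%) was higher, or 3 lower and 2 higher with the all-gene median taken off, and the median log2 fold change was -0.33. Their summed level was 616 FPKM in WT against 558 FPKM in the knockout. The ADP/ATP carriers Slc25a4 and Slc25a5, which exchange ATP for ADP, made up much of it with 260 and 230 FPKM. Slc25a4 stood at 73.8 and 81.8 FPKM, and reads of Slc25a5 may be shared with its pseudogenes. The phosphate carrier Slc25a3 was at 47.9 and 44.3 FPKM (1.08-fold lower, counting interval 1.03 to 1.13), so the carriers that serve ATP synthesis directly differed little beside other members of the family.

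Carriers of shuttles and of fuel showed larger differences. Slc25a11, the oxoglutarate carrier of the malate-aspartate shuttle, was at 47.1 FPKM in WT against 17.3 FPKM in the knockout, 2.73-fold lower (counting interval 2.45 to 3.05). The aspartate-glutamate carriers of the same shuttle stood at 5.77 and 2.87 FPKM (Slc25a13) and 5.54 and 3.31 FPKM (Slc25a12), and the 3 together at 58.5 and 23.4 FPKM. Slc25a20, which brings fatty acids in as acylcarnitine, was at 7.76 and 1.93 FPKM, 4.02-fold lower (counting interval 3.28 to 4.97). The citrate carrier Slc25a1, which supplies the cytosol with carbon for lipid synthesis, stood at 20.6 and 32.5 FPKM and the dicarboxylate carrier Slc25a10 at 4.78 and 7.196 FPKM. The glutamate carrier Slc25a22, the ornithine carrier Slc25a15 and the branched-chain amino acid carrier Slc25a44 stood at 2.44 and 1.54, 2.46 and 0.630, and 12.1 and 6.80 FPKM, of which Slc25a15 was past 2-fold.

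The calcium-regulated carriers of ATP-magnesium and phosphate went in different directions. Slc25a24 (chr3:109123149-109168457, mm10, plus strand) was at 25.9 FPKM in WT against 6.87 FPKM in the knockout, 3.78-fold lower (counting interval 3.32 to 4.31), and had the lowest log2 fold change of the family at -1.78. Its relatives Slc25a23 and Slc25a25 stood higher in the knockout library without reaching 2-fold, at 2.13 and 3.45 FPKM and at 2.22 and 3.56 FPKM. Slc25a24 was the most abundant of the 3 in both libraries.

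Among carriers of cofactors and nucleotides, Slc25a51, which imports NAD, was at 10.2 FPKM in WT against 20.9 FPKM in the knockout (2.05-fold, counting interval 1.87 to 2.24), just short of 2-fold on the log2(FPKM + 1) scale at 0.97. The pyrimidine nucleotide carriers differed from each other, Slc25a33 at 5.38 and 2.09 FPKM and Slc25a36 at 5.39 and 8.79 FPKM. They were level with each other in WT and stood apart in the knockout. Slc25a32, for folate or FAD, stood at 4.31 and 3.05 FPKM, Slc25a26, for S-adenosylmethionine, at 1.35 and 0.723 FPKM, and Slc25a16, linked to coenzyme A, at 4.12 and 4.72 FPKM. The peroxisomal member Slc25a17 was at 22.9 and 23.0 FPKM.

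The iron carriers Slc25a37 and Slc25a28 stood at 9.40 and 9.44 FPKM and at 17.6 and 23.7 FPKM, and the glycine carrier Slc25a38, needed for heme synthesis, at 4.84 and 3.26 FPKM. The glutathione carrier Slc25a39 was at 31.9 and 29.5 FPKM and its relative Slc25a40 at 1.71 and 0.509 FPKM. Slc25a30, a relative of the uncoupling proteins (chr14:75760117-75787037, mm10, minus strand), was the member past 2-fold on the higher side, at 13.8 FPKM in WT against 40.9 FPKM in the knockout (2.96-fold, counting interval 2.73 to 3.20). Slc25a14, of the same branch, was lower, at 3.03 and 0.961 FPKM. Slc25a46, an outer membrane protein of mitochondrial fission, stood at 17.2 and 9.04 FPKM, Slc25a43 at 3.37 and 1.43 FPKM and Slc25a45 at 6.63 and 8.65 FPKM.

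**Figure D3:**
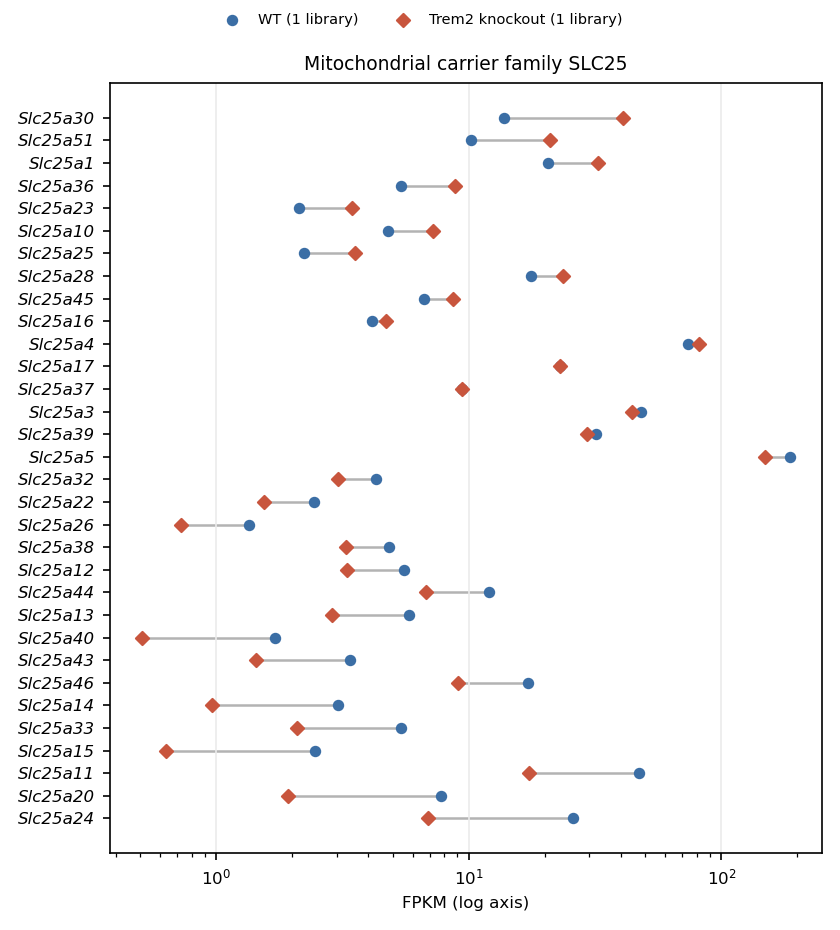
Levels in FPKM (log axis) of 32 of the 33 measured SLC25 carriers, ordered by log2 fold change. Circles stand for the WT library and diamonds for the Trem2 knockout library. Slc25a24, Slc25a20 and Slc25a11 at the bottom are lower in the knockout, Slc25a30 at the top is higher, and the abundant Slc25a5, Slc25a3 and Slc25a4 have both symbols close together.

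All 3 measured fatty acid transport proteins of the SLC27 family, which bring fatty acids in and activate them, were lower: Slc27a1 at 24.0 FPKM in WT against 9.81 FPKM in the knockout (2.44-fold, counting interval 2.24 to 2.67), Slc27a4 at 5.601 and 1.51 FPKM, and Slc27a6 at 9.35 and 3.07 FPKM. Their sum was 38.9 FPKM in WT against 14.4 FPKM in the knockout. With the all-gene median taken off Slc27a4 and Slc27a6 stayed past 2-fold, at -1.09 and -1.04, and Slc27a1 did not, at -0.90. The carnitine carrier Slc22a5 stood at 3.35 and 2.19 FPKM. Slc22a4, which carries carnitine weakly and the antioxidant ergothioneine, was higher, at 5.88 and 14.8 FPKM (2.51-fold, counting interval 2.13 to 2.98).

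Of 3 carriers of copper and heme 1 was higher and 0 lower. The copper importer Slc31a1 was at 36.2 FPKM in WT against 48.0 FPKM in the knockout, and its relative Slc31a2, of endosomes and lysosomes, at 51.8 and 108 FPKM, 2.09-fold higher (counting interval 1.96 to 2.23). Slc48a1 was at 94.1 and 168 FPKM, 1.79-fold, and was past 2-fold with the all-gene median taken off, at 1.14. The group's median log2 fold change of 0.83 was the highest of the 15 groups, over 3 genes. The folate and heme carrier Slc46a1 went the other way, at 2.61 and 0.735 FPKM.

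Of 14 measured carriers of sodium, protons, bicarbonate and chloride, 1 was lower, Slc4a2, an exchanger of chloride for bicarbonate, at 4.89 FPKM in WT against 0.723 FPKM in the knockout, 6.77-fold (counting interval 5.28 to 8.68). Among the abundant others were the potassium-chloride carrier Slc12a4 (9.23 and 9.002 FPKM) and the sulfate carrier Slc26a11 (8.03 and 7.01 FPKM). All 14 had a log2 fold change below 0, down to -1.77, where 6791 of all 9962 measured genes were below 0 too. The median of the 14 was -0.28, near that of all genes. The magnesium carrier Slc41a2 was lower, at 7.45 and 1.36 FPKM, 5.50-fold (counting interval 4.39 to 6.95), while its relatives Slc41a1 and Slc41a3 stood at 1.60 and 2.34 FPKM and at 4.88 and 2.80 FPKM. The sodium-calcium exchanger Slc8a1 stood at 4.76 and 2.34 FPKM. The phosphate importers Slc20a1 and Slc20a2 stood at 8.54 and 9.31 FPKM and at 2.17 and 2.60 FPKM.

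Among the remaining carriers of organic substrates those past 2-fold were lower. In the monocarboxylate family Slc16a13 was at 3.48 FPKM in WT against 0.482 FPKM in the knockout, Slc16a9 at 2.27 and 0.495 FPKM and Slc16a7, a carrier of pyruvate and lactate, at 2.75 and 0.852 FPKM. With the all-gene median taken off Slc16a13 alone of these stayed past 2-fold, at -1.29. Slc16a6 had the highest mean of the 5 measured carriers in this group, which lacks the lactate carriers left out by the rule. It was near level (11.4 and 10.7 FPKM). The creatine carrier Slc6a8 was at 41.6 and 17.1 FPKM, 2.43-fold lower (counting interval 2.27 to 2.61). With the all-gene median taken off Slc6a8 was within 2-fold, at -0.93. Slc10a3, of the bile acid carrier family, was at 9.55 and 1.82 FPKM, 5.25-fold lower (counting interval 3.79 to 7.29), and Slc10a7 stood at 1.85 and 0.518 FPKM.

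Sugar phosphate carriers of the SLC37 family all lay below 0 on the log2 scale, as did 6791 of all 9962 measured genes. Slc37a2, a carrier of the endoplasmic reticulum that macrophages express, was past 2-fold at 20.2 FPKM in WT against 8.37 FPKM in the knockout. With the all-gene median taken off it was within 2-fold, at -0.87. Slc37a4, which brings glucose 6-phosphate into the endoplasmic reticulum, stood at 4.08 and 1.90 FPKM, Slc37a3 at 5.96 and 3.52 FPKM and Slc37a1 at 2.03 and 0.991 FPKM. The lysosomal sialic acid carrier Slc17a5 was near level at 21.7 and 20.3 FPKM. Among nucleotide sugar carriers of the Golgi, Slc35a1, for CMP-sialic acid, was lower at 11.5 and 5.07 FPKM. With the all-gene median taken off Slc35a1 was within 2-fold, at -0.73. Slc35a3, for UDP-N-acetylglucosamine, and Slc35a5 stood at 5.30 and 2.78 FPKM and at 4.47 and 2.28 FPKM. Slc33a1, which carries acetyl-CoA into the endoplasmic reticulum, was at 13.6 and 8.64 FPKM and Slc35a4 at 9.49 and 9.95 FPKM.

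The sugar carriers kept here, without the glucose carrier left out by the rule, were low and mostly level. Slc50a1 stood at 12.3 FPKM in WT against 10.5 FPKM in the knockout, and the facilitative carriers Slc2a6, Slc2a8 and Slc2a9 (the last a urate carrier) stayed between 1.81 and 2.89 FPKM in both libraries. Slc45a4 was lower, at 4.09 and 0.918 FPKM, and Slc5a3, which imports the osmolyte inositol, stood at 0.546 and 1.62 FPKM. Of 9 carriers of vitamins and choline 2 were lower, the lysosomal Slc46a3 (4.85 and 1.31 FPKM) and Slc46a1. With the all-gene median taken off Slc46a3 alone stayed past 2-fold, at -1.03. The vitamin C carrier Slc23a2 was at 8.78 and 4.05 FPKM, and the choline carriers Slc44a1 and Slc44a2 at 16.0 and 11.7 FPKM and at 14.2 and 9.59 FPKM. The carriers of riboflavin (Slc52a2), folate (Slc19a1), thiamine (Slc19a2) and biotin (Slc5a6) had log2 fold changes between -0.30 and 0.11.

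**Figure D4:**
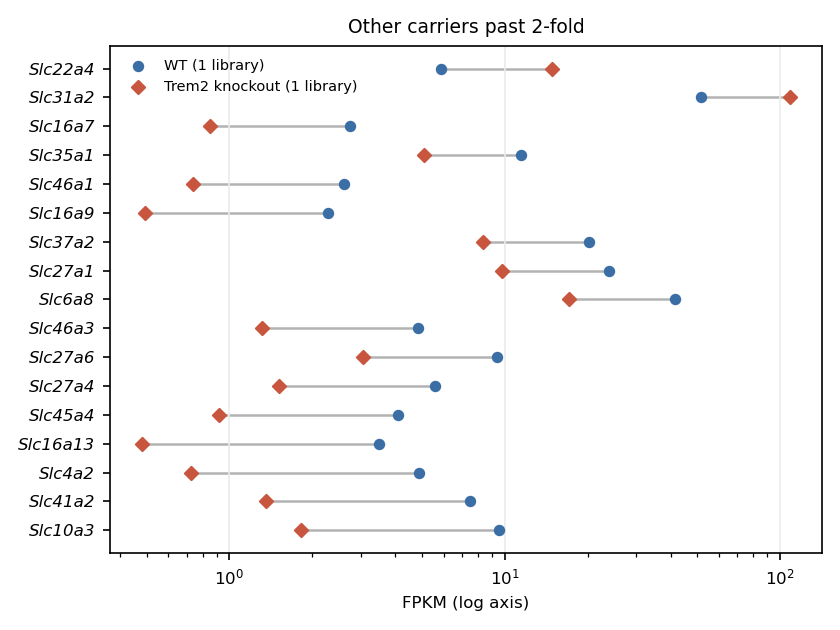
Levels in FPKM (log axis) of the 17 carriers past 2-fold outside the amino acid, zinc, nucleoside and mitochondrial groups, ordered by log2 fold change. Circles stand for the WT library and diamonds for the Trem2 knockout library. Slc22a4 and Slc31a2 at the top are higher in the knockout and the other 15 are lower.

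Level and gene length were set beside the counts. In each quartile of all genes by mean level the share of lower solute carriers (20.5%, 24.2%, 28.2% and 17.4% from the lowest quartile to the highest) stood above that of all genes (13.5%, 16.2%, 15.2% and 9.80%). By exon length, from the shortest quartile, the shares were 53.3% of 15, 29.4% of 34, 17.1% of 41 and 18.2% of 33 carriers, beside 16.1%, 17.6%, 13.2% and 8.31% of all genes. The shortest quartile holds few carriers.

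**Figure D5:**
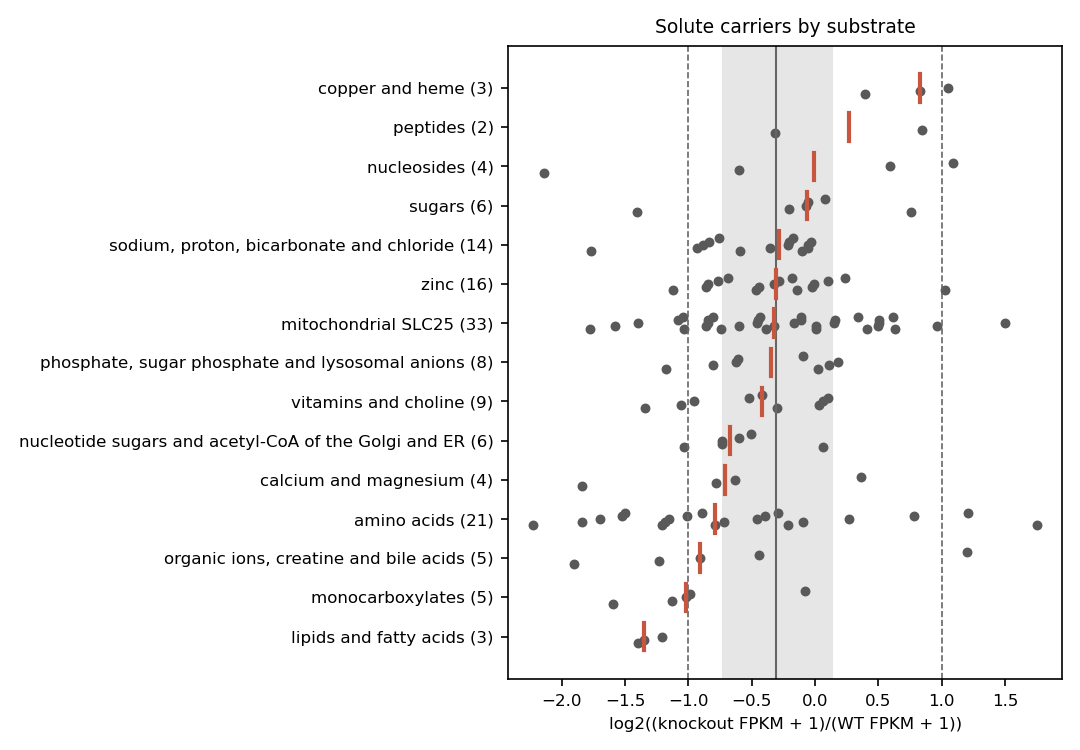
Log2 fold change of each of the 139 solute carriers (points) by substrate group, with the number of genes in brackets and the group median as an upright bar. The solid line marks the median of all genes, -0.31, the grey band the range between the quartiles of all genes, and the dashed lines 2-fold. Fatty acid carriers lie furthest to the left and copper and heme carriers furthest to the right, with 3 genes each.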

How the data were processed

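RNA from 1 WT and 1 Trem2 knockout library was prepared with dUTP in the second strand for Illumina sequencing, as the labels' protocols state. The authors deposited FPKM per gene, per the file headers, while the submitters' processing notes list mm10 as build. Aligner, quantifier, strand use and further scaling: not given in the sources used here. All listed genes reach 0.501 FPKM in at least 1 library, and genes below that are not analysed here. Columns were matched to samples by description.

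The members and lists were chosen with earlier results of these data known. Substrate groups follow family numbers. The text gives every member past 2-fold, every amino acid, zinc, nucleoside and SLC25 member with a mean of at least 1 FPKM, and the 4 members of highest mean in other groups. Other genes come from fixed lists, with the ID of higher mean for a repeated symbol. Slc7a11 and some further members of the other groups were added after their values were seen. A few members are counted but not reported here by name.

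The log2 fold change used a pseudocount of 1 FPKM. Genes were counted by size because 1 library per group allows no test. Merged exon lengths came from GENCODE release M21, matched on versioned ID and position (9914 of 11349 genes, 138 of 160 members). FPKM times length of genes with 1 transcript was searched for a common step between low values. Of 124 low WT values 62.9%, and of 186 low knockout values 71.5%, lay within 0.1 steps of a multiple of it. Chance gives 20% for a step fixed beforehand. The step was picked to fit these same values, so the 20% is no test of it. Taking 300 steps as 1 fragment gave the depths, which assume 300 sequenced bases per fragment and were used for intervals only. The fragment numbers behind the intervals came from FPKM, merged exon length and this step, also for genes with more than 1 transcript. Where merged exons are longer than the transcripts present, those numbers are too high and the intervals too narrow. The procedure was also run on fragments simulated with the same steps and lengths, which cannot check the 300-base assumption or the lengths. Alternatives were other pseudocounts, filters, scalings and thresholds, and removal of a lowess trend with exon length. Software was matplotlib 3.10.9, statsmodels 0.14.6, scipy 1.17.1, pandas 2.3.3, numpy 2.4.6 and Python 3.11.15.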

Additional observations from a re-analysis of the deposited data

How the results depend on the processing

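No paired analysis was possible because only 1 WT and 1 knockout library exist here, with no shared number. Of the carriers past 2-fold, Slc36a1 and Slc25a30 on the higher side and Slc38a2, Slc7a8, Slc38a7, Slc1a5, Slc28a2, Slc25a24, Slc25a11 and Slc10a3 on the lower side stayed past it under every alternative pseudocount, filter, scaling and length setting that applied to them. The other 5 higher and 24 lower carriers fell within 2-fold under at least 1, and all 39 kept their direction. Of the 100 carriers within 2-fold 80 stayed within, and 65 kept their sign. For most alternatives the cause of a difference in counts was not tested, except that a higher threshold or pseudocount lowers counts by construction.

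Shares over all genes are given only for 2-fold as deposited and with the all-gene median taken off. The other counts below have no background beside them and show no excess by themselves. At 1.5-fold 15 solute carriers were higher and 62 lower, where the lower quartile of all genes, -0.73, was itself past 1.5-fold. Of zinc carriers 5 were lower, of nucleoside carriers 2 were higher and 2 lower, and of SLC25 carriers 4 were higher and 12 lower. At 4-fold 0 solute carriers were higher and 2 lower (Slc38a2 and Slc28a2), with amino acid carriers at 0 and 1, zinc at 0 and 0, SLC25 at 0 and 0, and 0 nucleoside carriers higher. With a pseudocount of 5 FPKM 2 were higher and 10 lower, with amino acid carriers at 1 and 5, zinc at 0 and 0, 0 nucleoside carriers higher and 2 SLC25 carriers lower. With one of 0.1 FPKM 2 zinc carriers were lower and 2 SLC25 carriers higher, and 44 solute carriers were lower. At a mean of 5 FPKM or more, which leaves 70 members, 17 were lower and the median was -0.19, with 1 amino acid carrier higher and 2 SLC25 carriers lower. Both the median of ratios set to 1 and the trimmed mean of log ratios set to 0 gave 11 higher and 18 lower, with 0 zinc carriers lower and 2 SLC25 carriers higher and 3 lower. With the all-gene median taken off the counts were 12 and 17 and the median -0.14, with 5 amino acid, 0 zinc and 3 SLC25 carriers lower and 2 SLC25 carriers higher. After rescaling to the same summed FPKM 4 were higher, with zinc at 0 and 2 and 0 nucleoside carriers higher. With the trend with exon length removed 0 zinc carriers were higher, because Slc39a7 has no matched length.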

Other observations

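Carriers whose symbols lie outside the Slc numbering were read from a list of 27, of which 18 had a mean of 1 FPKM or more. Of these 0 were at least 2-fold higher and 2 lower in the knockout library, or 0 and 1 with the all-gene median taken off, with a median log2 fold change of -0.34. Pqlc2, the lysosomal exporter of cationic amino acids, was at 8.62 FPKM in WT against 0.954 FPKM in the knockout, 9.04-fold lower, and Tmem165, a manganese and calcium carrier of the Golgi, at 61.8 and 28.3 FPKM. Pqlc2 thus joins Slc38a7 among the lysosomal amino acid exporters that were lower, beside Slc36a1, which was higher. The mitochondrial pyruvate carrier subunits Mpc1 and Mpc2 stood at 34.1 and 43.9 FPKM and at 5.16 and 5.19 FPKM, and the uncoupling protein Ucp2 at 20.1 and 17.7 FPKM. The lysosomal cystine exporter Ctns was at 13.0 and 8.91 FPKM, the heme exporter Flvcr1 at 8.04 and 13.1 FPKM, and Mfsd12, which imports cysteine into lysosomes, at 94.5 and 134 FPKM.

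Of 12 named partner proteins of carriers 9 were measured, 1 of which was lower and 0 higher, or 1 and 1 with the all-gene median taken off. Itm2b, the most abundant of them, stood at 565 and 969.7 FPKM and passed 2-fold on the second scale, at 1.08. Slc9a3r1, a scaffold that holds carriers at the cell cortex, was at 141 FPKM in WT against 26.3 FPKM in the knockout, 5.35-fold lower. Bsg, which escorts monocarboxylate carriers to the surface, stood at 128 and 190 FPKM, and Emb, which does the same for others of that family, at 44.0 and 35.9 FPKM.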
